A study of Mus musculus with 14 samples.

Results

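The genes described are 43 members of the Wnt, Notch and Hedgehog signalling pathways in sorted mouse mammary cells. They were chosen by symbol, with earlier results of these data known. Taken was every named gene of the deposited table whose symbol belongs to a Wnt, Frizzled, Sfrp, Dickkopf, R-spondin, Lgr, Axin, Naked, Tle, Notch, Delta-like, Jagged, Hes, Hey, Mastermind, Fringe, Patched or Gli family. Symbols that are Lrp4, Lrp5, Lrp6, Znrf3, Rnf43, Apcdd1, Smo, Shh, Ihh or a Hhip gene were taken too, and Lgr5 was left out. The Hedgehog ligand gene Dhh did not fall under these symbols. These 43 genes, measured by 62 probe sets, were a part of 6044 named genes with 8499 probe sets. The authors had kept only probe sets that differed by at least 2.0 log2 units between some arrays, so every member had to differ somewhere, and the table held 43 of 98 RefSeq mouse protein-coding genes that fit the symbols. It held 8 of 19 Wnt ligands, 7 of 10 Frizzled receptors, 4 of 4 Notch receptors and 3 of 3 Hey factors. Hes1 and the other Hes genes were not analysed here.

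Wnt proteins are secreted ligands that bind Frizzled receptors, with Lrp proteins as co-receptors, and either stabilise beta-catenin or act on cell polarity and movement, while R-spondins and their Lgr receptors raise the amount of Frizzled at the cell surface. Notch receptors are cut when a Delta-like or Jagged ligand on a neighbouring cell engages them, and the freed fragment joins RBPJ and Mastermind on DNA to switch on Hes and Hey genes. Hedgehog ligands relieve Smo from Patched and act through Gli factors. In the mammary gland, Wnt signals are known from stem cell maintenance and side branching, and Notch signals from the commitment of luminal cells.

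RNA was measured on 14 Affymetrix oligonucleotide arrays of the mouse genome, 1 per sorted sample, from virgin female C57BL/6 mice labelled as 6 to 8 weeks old. The labels name no transgene and no treatment. Freshly dissociated glands were stained for the blood and endothelial antigens CD45, CD31 and Ter119 and for CD49f, CD24 and Thy-1, and cells were sorted by repeated passes into 5 populations. The study's methods also name an antibody to CD140α, the fibroblast antigen that Pdgfra encodes, which the labels do not list. The labels do not say how many mice gave a sample or whether replicates came from separate mice, so p-values measure the spread between these samples, which may be technical. The luminal populations were CD24highCD49fmed cells (3 arrays), described as luminal progenitors, and CD24medCD49f-/low cells (2 arrays), described as differentiated luminal cells. The basal populations were Thy-1+CD24medCD49fhigh cells (3 arrays), described as stem cells, Thy-1-CD24medCD49fhigh cells (3 arrays), described as progenitors, and CD24medCD49fmed cells (3 arrays), described as myoepithelial and called CD24lowCD49fmed in the study's text.

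All values are log2 values that the authors centred on the mean of the 14 arrays for each probe set, so 0 is a gene's own mean, a difference of 1 is 2-fold, and levels of different genes cannot be compared. A gene was called where its adjusted p in limma was under 0.05 over 7190 rows tested, the named genes plus probe sets with no single symbol. All 12 basal epithelial markers were lower (median difference -4.01) and all 10 luminal epithelial markers higher (median 2.19) in luminal than in basal arrays, each of them called. Arrays of Thy-1+CD24medCD49fhigh cells differed most from each other, with median absolute differences of 0.929 to 1.275, against 0.208 to 0.614 within other populations. The median over all rows was -0.74, 0.08 and -0.51 in their replicates 1, 2 and 3, against -0.15 to 0.28 in the other 11 arrays. Correlations between them over all rows were -0.186 to 0.241. This range overlapped the 0.144 to 0.456 between Thy-1-CD24medCD49fhigh arrays and lay below the 0.449 to 0.684 between CD24medCD49fmed arrays. Thy1 itself was 2.00, -0.07 and 3.03 in Thy-1+CD24medCD49fhigh replicates, against -0.77, -0.10 and -0.36 in Thy-1-CD24medCD49fhigh replicates, so the array labelled Thy-1+ replicate 2 lay close to the Thy-1- arrays. Basal epithelial markers averaged 0.55, 1.84 and 0.24 in Thy-1+CD24medCD49fhigh replicates 1 to 3, endothelial genes averaged 2.42 in replicate 1, and cornified keratinocyte genes averaged 3.90 in replicate 3. Basal epithelial markers also averaged 0.43 in Thy-1-CD24medCD49fhigh replicate 2, against 1.80 to 2.10 in the other Thy-1-CD24medCD49fhigh and CD24medCD49fmed arrays. Endothelial genes also averaged 2.28 in CD24medCD49fmed replicate 1. Cornified keratinocyte genes also averaged 1.82 and 1.92 in CD24medCD49fmed replicates 2 and 3 and 1.28 in Thy-1-CD24medCD49fhigh replicate 3.

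Short promoter stretches give the sequence context of members called in the comparisons described here. RefSeq start sites (GRCm38.p6) matched 30 of the 43 members, with 35 promoters, and the 250 bases before each start were searched on both strands for core motifs of the factors that end these pathways. The RBPJ core TGGGAA stood in 6 of 35 member promoters and in 21.6% of all 32851 promoters of the same length, the TCF/LEF core CTTTGAT in 2 of 35 and in 3.21% of all, and the GLI core GACCACCCA in 0 of 35 and in 0.225% of all. None of the printed cores overlap each other. A match is a description of letters, not a binding site. All windows of called members that hold a core are printed 5′ to 3′ on the gene's strand with the core in capitals, up to 30 bases each side, and TTCCCA is TGGGAA on the other strand.
Wnt5b, TCF/LEF core, chr6:119449421-119449487, minus strand: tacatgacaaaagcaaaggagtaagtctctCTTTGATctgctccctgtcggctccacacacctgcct
Wnt5b, RBPJ core at another start site, chr6:119467244-119467309, minus strand: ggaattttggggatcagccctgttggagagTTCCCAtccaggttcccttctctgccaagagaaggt
Wnt9a, RBPJ core, chr11:59306680-59306725, plus strand: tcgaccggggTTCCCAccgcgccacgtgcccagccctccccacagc
Nkd2, RBPJ core, chr13:73847846-73847881, minus strand: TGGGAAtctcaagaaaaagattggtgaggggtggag
Lgr6, RBPJ core, chr1:135105442-135105507, minus strand: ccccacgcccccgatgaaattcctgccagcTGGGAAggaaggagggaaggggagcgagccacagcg
Lfng, RBPJ core, chr5:140607176-140607241, plus strand: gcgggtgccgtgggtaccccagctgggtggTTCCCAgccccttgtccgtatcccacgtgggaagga
Lfng, RBPJ core, chr5:140607203-140607268, plus strand: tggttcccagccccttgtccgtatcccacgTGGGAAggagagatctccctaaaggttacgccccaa

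The first comparison asked how the pathway genes differ between luminal and basal cells. Of 43 members 29 were called, 9 higher and 20 lower in luminal cells, while 45.1% of all rows tested were called, 27.7% higher and 17.4% lower. Counts by role group below are read against these shares. Of the members 29 lay below 0 with a median difference of -0.69, whereas the median of all rows was 0.33. The lower members were 7 receptors for Wnt or R-spondin, 3 Wnt ligands, 3 secreted or membrane-bound Wnt modulators and 3 Notch ligands. Nkd2, Znrf3, Lfng and Gli3 were lower as well. The higher members were Wnt4, Wnt5b, Wnt7b, Notch1, Notch3, Hey1, Dkkl1, Fzd4 and Hhipl2. Luminal and basal arrays did not overlap for 3 members that were higher (Notch3, Dkkl1 and Hhipl2; 16.5% of all rows) and for 8 that were lower (Dll1, Nkd2, Jag2, Sfrp1, Wnt6, Lrp4, Apcdd1 and Wnt10a; 9.51% of all rows). In bulk samples, fewer cells of a type and less RNA per cell cannot be told apart. Marker lists of other cell types also held genes called lower in luminal cells. Of 9 fibroblast genes measured, 6 were called lower and 1, Col6a3, higher, and the list averaged -1.17 to -0.28 in luminal and -0.35 to 2.07 in basal arrays. Of 13 endothelial genes 7 were called lower (-0.87 to -0.71 in luminal and -0.85 to 2.42 in basal arrays), and of 6 pericyte genes 5 (-1.07 to -0.74 in luminal and -0.13 to 2.45 in basal arrays). Cell cycle genes were called lower for 7 and higher for 1 of 12, cornified keratinocyte genes lower for 5 of 8, Schwann cell genes lower for 3 and higher for 1 of 5, adipocyte genes lower for 2 of 4, and myeloid genes higher for 1 of 4. The part of such cells in the members' differences was not tested. Without both low-median arrays of Thy-1+CD24medCD49fhigh cells, replicates 1 and 3, 35 members were called, 11 higher and 24 lower, including all 29, and 3573 rows.

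**Figure D1:**
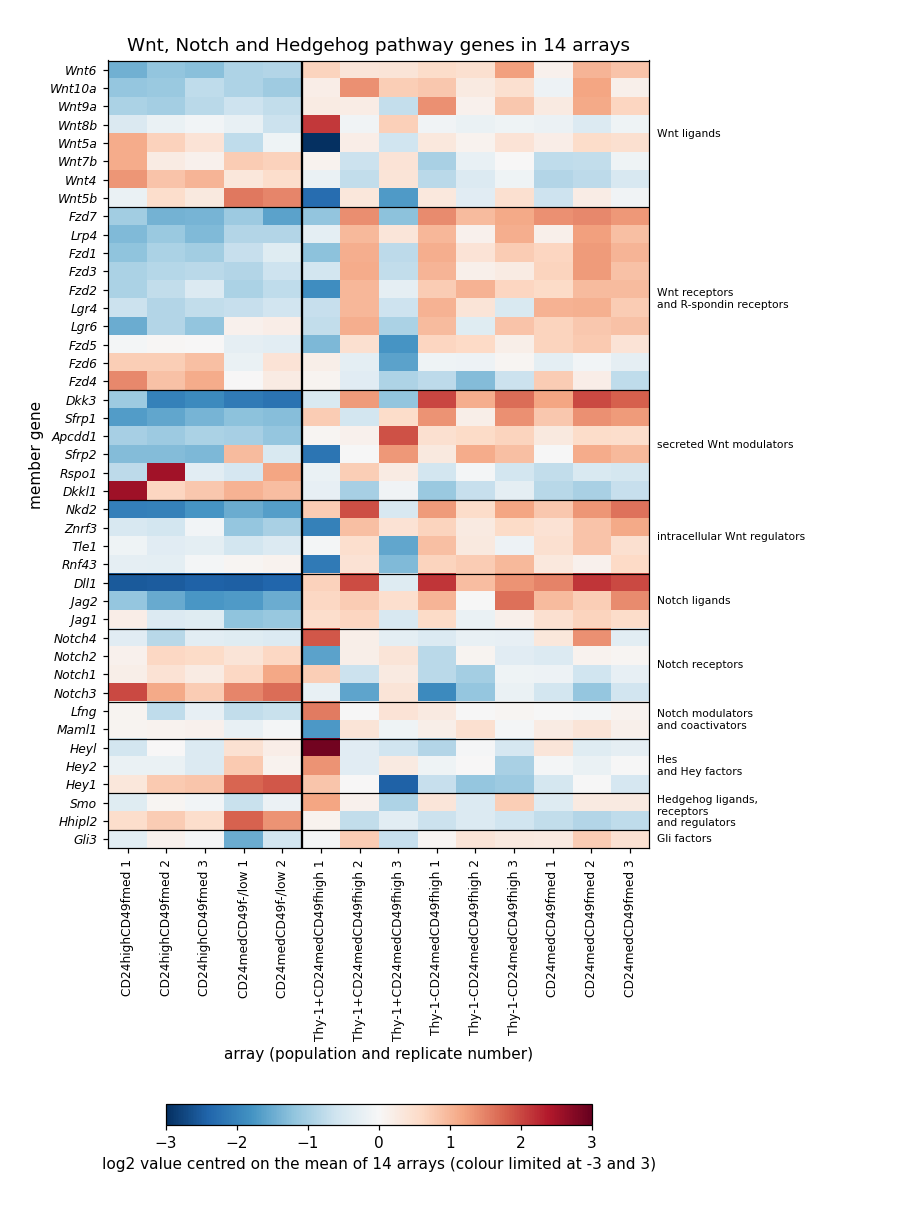
Centred log2 values of the 43 members (rows, grouped by role) in the 14 arrays (columns, luminal populations left of the heavy line and basal populations right of it), with colour limited at -3 and 3. Dll1, Nkd2 and Jag2 are blue in all 5 luminal arrays, and Thy-1+CD24medCD49fhigh replicate 1 holds single extremes such as Wnt5a (-2.99) and Heyl (2.90).

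Notch ligands were the role group that stood lowest in luminal cells, with 3 of 3 members called lower. Dll1, which encodes a Delta-like ligand, was -2.52, -2.49 and -2.43 in CD24highCD49fmed arrays and -2.44 and -2.38 in CD24medCD49f-/low arrays, against a lowest value of -0.39, a median of 1.49 and a highest value of 2.15 in 9 basal arrays. The luminal arrays lay close together and below every basal array. The difference was -3.81 (SE 0.34, 14.0-fold lower in luminal cells, limma adjusted p = 4.16e-08), the largest of any member.

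Jag2, a Jagged ligand gene, was -1.17, -1.52 and -1.74 in CD24highCD49fmed arrays and -1.71 and -1.48 in CD24medCD49f-/low arrays, against -0.02, 0.75 and 1.65 (lowest, median and highest) in basal arrays. No luminal array reached a basal one, and the difference was -2.38 (SE 0.30, 5.22-fold, limma adjusted p = 2.76e-06). Jag1, the other Jagged ligand gene, differed less, with fitted means of -0.68 in luminal and 0.32 in basal cells (SE of the difference 0.28, limma adjusted p = 0.0073). Its luminal values split by population, at 0.21, -0.40 and -0.37 in CD24highCD49fmed arrays and -1.21 and -1.13 in CD24medCD49f-/low arrays, and the CD24highCD49fmed arrays overlapped the basal range of -0.48 to 0.67.

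Notch receptors differed by member, with 2 of 4 called higher and none lower in luminal cells, against 27.7% of all rows called higher. Notch3 was 1.99, 1.14 and 0.76 in CD24highCD49fmed arrays and 1.46 and 1.68 in CD24medCD49f-/low arrays, against -1.92, -0.57 and 0.39 (lowest, median and highest) in basal arrays. Every luminal array exceeded every basal array (difference 2.21, SE 0.36, 4.63-fold, limma adjusted p = 5.95e-05), and both Notch3 probe sets were higher, by 1.92 and 2.50. Notch1, the receptor known best from lymphocytes, was 0.18, 0.44 and 0.25 in CD24highCD49fmed arrays and 0.62 and 1.16 in CD24medCD49f-/low arrays, against a basal range of -1.03 to 0.73 around a median of -0.25. These ranges overlapped, and the difference of 0.88 (SE 0.29, limma adjusted p = 0.0193) did not pass after each array was centred on its median (0.61, adjusted p = 0.135) or without CD24medCD49f-/low replicate 2 (0.75, adjusted p = 0.126). Notch2 did not pass the test (0.74, SE 0.33, limma adjusted p = 0.0709). Notch4, a receptor known from endothelium, did not pass either (-0.69, SE 0.35, limma adjusted p = 0.114).

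Hey1, a transcriptional repressor that Notch signals switch on, was 0.35, 0.78 and 0.83 in CD24highCD49fmed arrays and 1.74 and 1.86 in CD24medCD49f-/low arrays, against -2.42, -0.53 and 0.83 (lowest, median and highest) in basal arrays. The difference was 1.84 (SE 0.39, 3.59-fold, limma adjusted p = 0.000852). In basal cells the highest value, which met the luminal range, was in Thy-1+CD24medCD49fhigh replicate 1 and the lowest in replicate 3 of the same population. The other Hey factors did not pass, with differences of 0.09 for Hey2 and -0.03 for Heyl (limma adjusted p = 0.819 and 0.957 in that order). Lfng, a Fringe glycosyltransferase that tunes how Notch responds to its ligands, was lower in luminal cells (difference -0.76, SE 0.29, limma adjusted p = 0.0415), and its largest value, 1.57, came from Thy-1+CD24medCD49fhigh replicate 1. Its call ended when either CD24medCD49f-/low array, CD24highCD49fmed replicate 2 or 3, any CD24medCD49fmed array or Thy-1-CD24medCD49fhigh replicate 1 or 3 was left out (limma adjusted p 0.0536 to 0.129). Its 2 printed windows hold the RBPJ core. Maml1, a Mastermind coactivator gene, was at the same level on average in both lineages, with a difference of -0.00 (SE 0.32, limma adjusted p = 0.991).

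**Figure D2:**
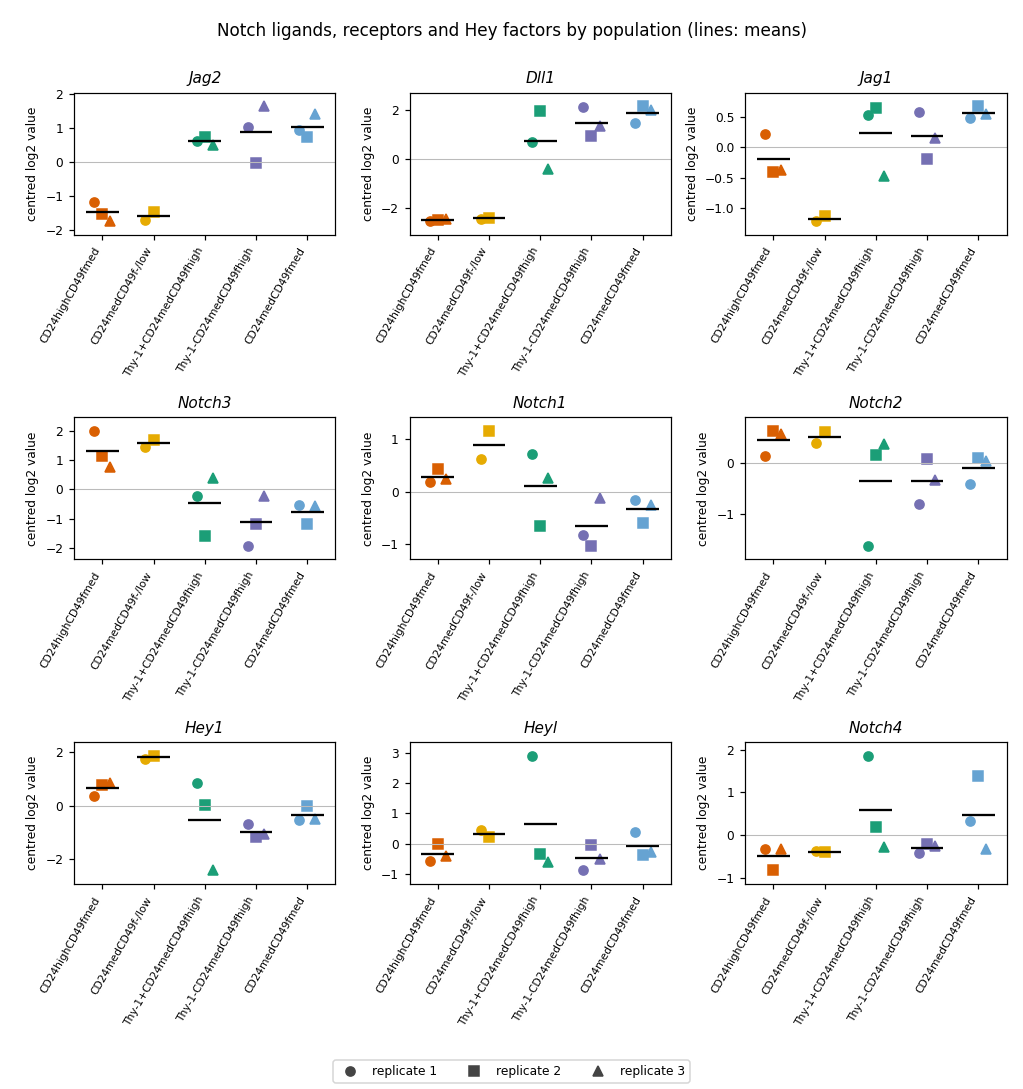
Centred log2 values of 9 Notch pathway members, each point 1 array, with symbols for the replicate number and lines for population means. Dll1 and Jag2 sit below 0 in all 5 luminal arrays, Notch3 sits at 0.76 to 1.99 there, Hey1 is highest in both CD24medCD49f-/low arrays, and Heyl (2.90) and Notch4 (1.86) peak in 1 Thy-1+CD24medCD49fhigh array.

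Wnt ligands split by member, 3 called higher and 3 lower of 8 in luminal cells. Wnt6, which encodes a ligand known to act through beta-catenin, was -1.43, -1.18 and -1.25 in CD24highCD49fmed arrays and -0.92 and -0.89 in CD24medCD49f-/low arrays, against 0.13, 0.54 and 1.23 (lowest, median and highest) in basal arrays. The groups did not overlap (difference -1.73, SE 0.27, 3.31-fold, limma adjusted p = 3.54e-05). Wnt10a, a ligand gene of skin appendages and teeth, was -1.17, -1.11 and -0.76 in CD24highCD49fmed arrays and -0.92 and -1.06 in CD24medCD49f-/low arrays, against -0.16, 0.47 and 1.36 in basal arrays. It too was lower in every luminal array (difference -1.56, SE 0.30, limma adjusted p = 0.000292). Wnt9a, whose printed window holds the RBPJ core, was also lower in luminal cells (difference -1.26, SE 0.29, limma adjusted p = 0.00175), with Thy-1+CD24medCD49fhigh replicate 3 (-0.71) inside the luminal range.

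Higher in luminal cells were Wnt4, Wnt5b and Wnt7b. Wnt4, a ligand that progesterone induces and that drives side branching, was 1.33, 0.86 and 1.03 in CD24highCD49fmed arrays and 0.33 and 0.53 in CD24medCD49f-/low arrays, against -0.87, -0.49 and 0.38 (lowest, median and highest) in basal arrays. Only Thy-1+CD24medCD49fhigh replicate 3 (0.38) exceeded a luminal array, and the difference was 1.20 (SE 0.27, 2.30-fold, limma adjusted p = 0.00146). Wnt5b, a ligand linked to signalling without beta-catenin, was -0.19, 0.52 and 0.30 in CD24highCD49fmed arrays and 1.58 and 1.47 in CD24medCD49f-/low arrays, against -2.28, -0.11 and 0.47 in basal arrays. The lineages overlapped through the CD24highCD49fmed arrays, and Thy-1+CD24medCD49fhigh replicates 1 and 3 were lowest (-2.28 and -1.71). The difference was 1.28 (SE 0.37, limma adjusted p = 0.00815). Wnt7b differed by 0.94 (SE 0.30, limma adjusted p = 0.0152) but missed the threshold after median centring (0.67, adjusted p = 0.107) or when either CD24medCD49f-/low array or CD24highCD49fmed replicate 1 was left out (adjusted p 0.0592 to 0.0655). Wnt5a and Wnt8b did not pass, with differences of 0.29 and -0.52, and both had an extreme in Thy-1+CD24medCD49fhigh replicate 1 (-2.99 for Wnt5a and 2.11 for Wnt8b).

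Among receptors for Wnt and R-spondin, 7 of 10 were called lower and 1 higher in luminal cells. Fzd7, a Frizzled receptor gene, was -1.05, -1.42 and -1.39 in CD24highCD49fmed arrays and -1.09 and -1.61 in CD24medCD49f-/low arrays. In basal cells it was -1.18, 1.39 and -1.24 in Thy-1+CD24medCD49fhigh arrays, 1.41, 0.94 and 1.14 in Thy-1-CD24medCD49fhigh arrays and 1.36, 1.44 and 1.29 in CD24medCD49fmed arrays. Thus 7 basal arrays lay well above all luminal arrays, and Thy-1+CD24medCD49fhigh replicates 1 and 3 lay among the luminal values. The difference was -2.04 (SE 0.37, 4.13-fold, limma adjusted p = 0.000161). Lrp4, a co-receptor that can dampen Wnt signals, was -1.32, -1.12 and -1.33 in CD24highCD49fmed arrays and -0.87 and -0.88 in CD24medCD49f-/low arrays, against -0.30, 0.91 and 1.22 (lowest, median and highest) in basal arrays. It was the only receptor with no overlap between lineages (difference -1.68, SE 0.30, limma adjusted p = 0.000154).

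Fzd1, Fzd3, Fzd2, Lgr4 and Lgr6 were called lower in luminal cells, with differences of -1.27 to -0.87, and in all 5 of them Thy-1+CD24medCD49fhigh replicates 1 and 3 were negative, at -1.86 to -0.26, where replicate 2 was 0.99 to 1.12. When single arrays were left out, Lgr6 kept its call only where that array was a Thy-1+CD24medCD49fhigh one or Thy-1-CD24medCD49fhigh replicate 2, and Fzd2 and Lgr4 did not pass without CD24medCD49f-/low replicate 1. The Frizzled genes Fzd1 and Fzd3 had differences of -1.27 and -1.26 (SE 0.34 and 0.32, limma adjusted p = 0.00482 and 0.00347). Fzd4, which binds Norrin as well as Wnt and serves vessel growth, was the receptor gene called higher in luminal cells. It was 1.43, 0.89 and 1.11 in CD24highCD49fmed arrays and 0.00 and 0.25 in CD24medCD49f-/low arrays, against -1.30, -0.65 and 0.77 (lowest, median and highest) in basal arrays, and the difference was 1.04 (SE 0.30, limma adjusted p = 0.00896). Without CD24medCD49f-/low replicate 2 it did not pass (0.98, adjusted p = 0.0574). In basal cells Fzd4 was highest in CD24medCD49fmed replicate 1 (0.77), where endothelial genes averaged 2.28, and was 0.09 in Thy-1+CD24medCD49fhigh replicate 1, where they averaged 2.42. The part of vessel cells was not tested. Fzd5 and Fzd6 did not pass, at -0.22 and 0.74 (limma adjusted p = 0.585 and 0.0502).

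Secreted Wnt modulators, counted here with the membrane-bound Apcdd1, held both directions, with 3 of 6 called lower and 1 higher in luminal cells. Dkk3, a Dickkopf family gene, was -1.10, -2.02 and -1.90 in CD24highCD49fmed arrays and -2.12 and -2.22 in CD24medCD49f-/low arrays, against -1.18, 1.28 and 2.00 (lowest, median and highest) in basal arrays. Only Thy-1+CD24medCD49fhigh replicate 3 (-1.18) fell into the luminal range, and the difference was -2.96 (SE 0.36, 7.81-fold, limma adjusted p = 2.01e-06). Sfrp1, which encodes a soluble protein with a Frizzled domain that binds Wnt, was -1.67, -1.55 and -1.40 in CD24highCD49fmed arrays and -1.23 and -1.28 in CD24medCD49f-/low arrays, against -0.55, 0.82 and 1.38 in basal arrays. Its lineages did not overlap, its 4 probe sets differed by -3.42 to -1.31, and the mean difference was -2.19 (SE 0.30, limma adjusted p = 9.67e-06). Apcdd1, a membrane-bound Wnt inhibitor, was lower by 1.63 in the fit (difference -1.63, SE 0.31, limma adjusted p = 0.000267), but its 4 probe sets ranged over -2.86 to -0.25 and correlated as low as 0.17.

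Dkkl1, a Dickkopf-like gene known from developing sperm, was 2.54, 0.65 and 0.82 in CD24highCD49fmed arrays and 1.04 and 0.92 in CD24medCD49f-/low arrays, against -1.12, -0.70 and -0.10 (lowest, median and highest) in basal arrays. All luminal arrays exceeded all basal arrays, and CD24highCD49fmed replicate 1 stood above the rest (difference 1.82, SE 0.33, limma adjusted p = 0.000159). Rspo1, an R-spondin that raises Wnt responses, did not pass (0.64, SE 0.44, limma adjusted p = 0.232). Its values did not follow the populations, at -0.78, 2.53 and -0.32 in CD24highCD49fmed arrays and -0.50 and 1.18 in CD24medCD49f-/low arrays, against at most 0.73 in basal arrays. Replicate 2 was the highest array of every population, also in Thy-1+CD24medCD49fhigh (0.73), Thy-1-CD24medCD49fhigh (-0.05) and CD24medCD49fmed cells (-0.46). The reason was not tested. Sfrp2 did not pass either (-0.92, SE 0.44, limma adjusted p = 0.0881) and is described below with the luminal populations.

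Inside the cell, Nkd2, which encodes a Dishevelled-binding inhibitor of Wnt signals, was -2.06, -2.02 and -1.78 in CD24highCD49fmed arrays and -1.50 and -1.65 in CD24medCD49f-/low arrays, against -0.47, 1.18 and 1.93 (lowest, median and highest) in basal arrays. The lineages did not overlap (difference -2.76, SE 0.34, 6.79-fold, limma adjusted p = 2.30e-06), and both probe sets were lower (-2.85 and -2.68). Its printed window holds the RBPJ core at its first bases. Znrf3, a ubiquitin ligase that removes Frizzled from the surface, was lower with a difference of -1.08 (SE 0.38, limma adjusted p = 0.0259), and lost the call when either CD24medCD49f-/low array or CD24highCD49fmed replicate 1 or 2 was left out (adjusted p 0.056 to 0.0964). Rnf43, the related ligase, and Tle1, a Groucho corepressor, did not pass (-0.11 and -0.57, limma adjusted p = 0.805 and 0.158).

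Hedgehog members were few. Hhipl2, a gene related by sequence to the Hedgehog-binding Hhip, was 0.53, 0.77 and 0.52 in CD24highCD49fmed arrays and 1.77 and 1.34 in CD24medCD49f-/low arrays, against -0.87, -0.64 and 0.11 (lowest, median and highest) in basal arrays. All luminal arrays exceeded all basal arrays (difference 1.63, SE 0.26, limma adjusted p = 4.40e-05). Gli3, a Gli factor that acts largely as a repressor, was lower in luminal cells (-0.80, SE 0.29, limma adjusted p = 0.0336). Its mean was -1.02 in CD24medCD49f-/low cells but -0.07 in CD24highCD49fmed cells, near the 0.00 of Thy-1+CD24medCD49fhigh cells. The lowest value was in CD24medCD49f-/low replicate 1 (-1.49). Without that array the difference was -0.56 (adjusted p = 0.228), and 4 other single arrays ended the call too: CD24highCD49fmed replicates 1 and 3 and CD24medCD49fmed replicates 2 and 3 (adjusted p 0.0523 to 0.0839). Smo, the membrane protein that passes the Hedgehog signal on, did not pass (-0.42, SE 0.34, limma adjusted p = 0.311).

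**Figure D3:**
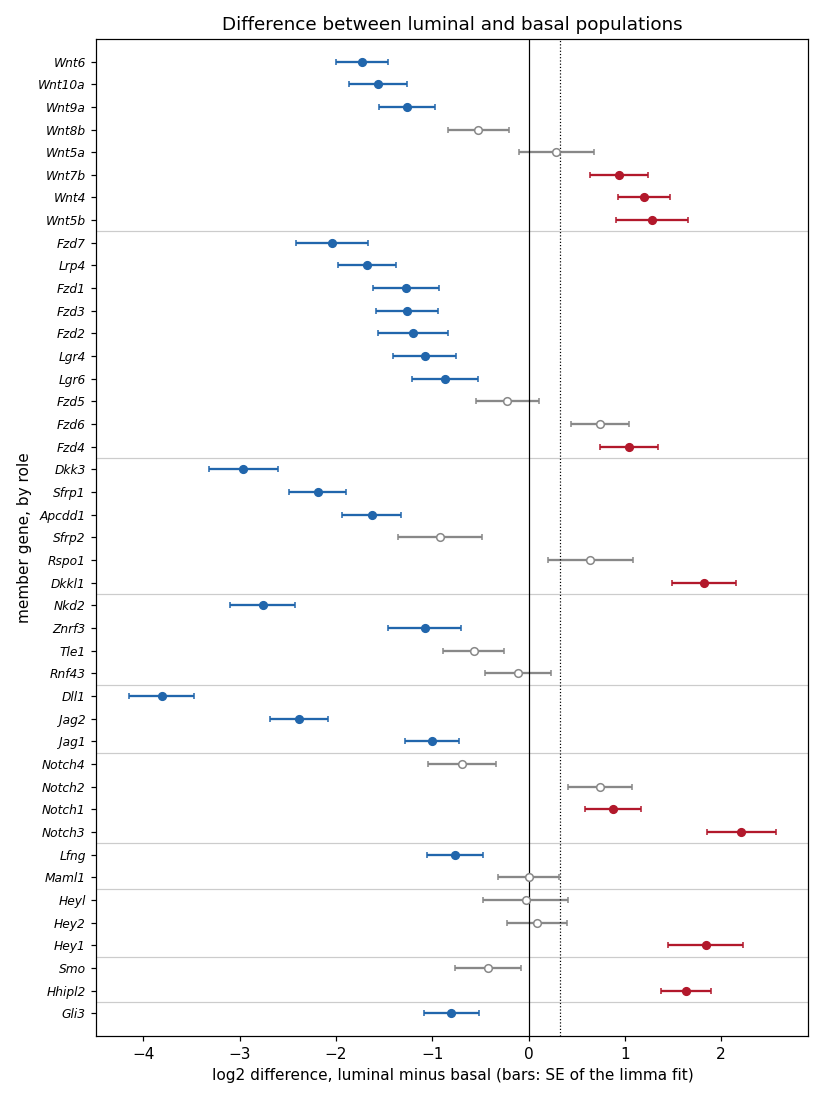
Log2 difference of each member, luminal minus basal, with bars for the SE of the limma fit, red for called higher, blue for called lower and open grey for not called. The dotted line is the median of all rows (0.33), and the differences run from -3.81 for Dll1 to 2.21 for Notch3.

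Other genes of these pathways came from lists chosen with earlier results of these data known, so they are no independent set. They are read against the 27.7% of all rows called higher and 17.4% called lower in the same comparison. Of 30 other Wnt pathway genes measured, 6 were called higher and 9 lower (median 0.18), and the largest differences were those of the secreted Wnt inhibitor Wif1 (-4.69), of Bambi (-2.46), a decoy receptor of TGF-beta signals, of the planar polarity gene Prickle2 (-2.09) and of Sostdc1 (-1.99), a secreted antagonist of BMP and Wnt. Of 17 other Notch pathway genes, 10 were called higher and 1 lower (median 0.89). They included Adam10 (2.43), the protease that first cuts Notch, Aph1a (1.59), a gamma-secretase subunit, and the Deltex ligase genes Dtx4 (1.40) and Dtx3l (1.38). Of 11 other Hedgehog pathway genes, 1 was called higher and 6 lower (median -1.04), led by the co-receptor Gas1 (-3.56), the receptor Gpr161 (-2.51), Scube3 (-2.31) and the ligand Dhh (-1.17). The median of all rows, 0.33, became 0.06 when each array was centred on its median, and the call counts over all rows, 1989 higher and 1253 lower, became 1430 and 1569, so these medians are to be read against 0.33.

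The second comparison set CD24highCD49fmed cells against CD24medCD49f-/low cells within the luminal lineage. Of 43 members 8 were called, 3 higher and 5 lower, against 5.59% of all rows. Wnt5a, Fzd4 and Jag1 were higher, and Wnt5b, Lgr6, Hey1, Hhipl2 and Sfrp2 were lower in CD24highCD49fmed cells. Medians were close to 0, at -0.06 for the members and 0.14 for all rows. Of 12 cell cycle genes 10 were called higher in CD24highCD49fmed cells (mean level -0.14 to 0.68 against -1.48 and -1.42), and myeloid genes were lower (2 of 4 called, mean level -0.18 to -0.10 against 1.74 and 0.69), and their part in the members' differences was not tested.

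Wnt5a, a ligand that signals largely without beta-catenin, was 1.11, 0.70 and 0.40 in CD24highCD49fmed arrays, against -0.77 and -0.14 in CD24medCD49f-/low arrays (difference 1.19, SE 0.27, limma adjusted p = 0.043). Wnt5b, its close relative, lay the other way, at -0.19, 0.52 and 0.30 in CD24highCD49fmed arrays, against 1.58 and 1.47 in CD24medCD49f-/low arrays (difference -1.32, SE 0.24, limma adjusted p = 0.0231). The groups did not overlap for either gene, but with so few arrays this adds little to the test. The share of all rows without overlap was not counted for this comparison. Fzd4 was 1.43, 0.89 and 1.11 in CD24highCD49fmed arrays, against 0.00 and 0.25 in CD24medCD49f-/low arrays (difference 1.01, SE 0.22, limma adjusted p = 0.0355).

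Lgr6, an R-spondin receptor gene of skin stem cells, had the smallest p among the members. It was -1.50, -0.88 and -1.18 in CD24highCD49fmed arrays, against 0.13 and 0.20 in CD24medCD49f-/low arrays (difference -1.35, SE 0.22, 2.55-fold, limma adjusted p = 0.0187), so the luminal lineage did not behave as 1 group for this gene. In basal cells Lgr6 was 0.66 to 0.89 in CD24medCD49fmed arrays, 0.95, -0.36 and 0.85 in Thy-1-CD24medCD49fhigh arrays and -0.75, 1.10 and -0.94 in Thy-1+CD24medCD49fhigh arrays. Sfrp2, a secreted Wnt-binding protein gene also made by stromal cells, was -1.30, -1.31 and -1.35 in CD24highCD49fmed arrays, against 0.94 and -0.45 in CD24medCD49f-/low arrays (difference -1.57, SE 0.35, limma adjusted p = 0.0414). The 2 CD24medCD49f-/low arrays differed from each other by more than 1, and fibroblast genes averaged -1.17 to -0.88 in CD24highCD49fmed arrays, against -0.28 and -0.59 in CD24medCD49f-/low arrays, with 1 of 9 called lower. The part of fibroblasts in the Sfrp2 values was not tested.

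In the Notch pathway, 1 of 3 ligands and 1 of 3 Hey factors were called between the luminal populations, while Dll1 and Jag2 did not pass (-0.07 and 0.12). Jag1 was 0.21, -0.40 and -0.37 in CD24highCD49fmed arrays, against -1.21 and -1.13 in CD24medCD49f-/low arrays (difference 0.98, SE 0.23, limma adjusted p = 0.0459). Hey1 was 0.35, 0.78 and 0.83 in CD24highCD49fmed arrays, against 1.74 and 1.86 in CD24medCD49f-/low arrays (difference -1.15, SE 0.21, 2.21-fold, limma adjusted p = 0.0246). Hey2 and Heyl had differences of the same sign that did not pass (-0.71 and -0.65, limma adjusted p = 0.103 and 0.109), and all 4 Notch receptors had negative differences that did not pass, at -0.60 to -0.06. Hhipl2 was lower in CD24highCD49fmed cells as well (difference -0.95, SE 0.21, limma adjusted p = 0.0373).

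**Figure D4:**
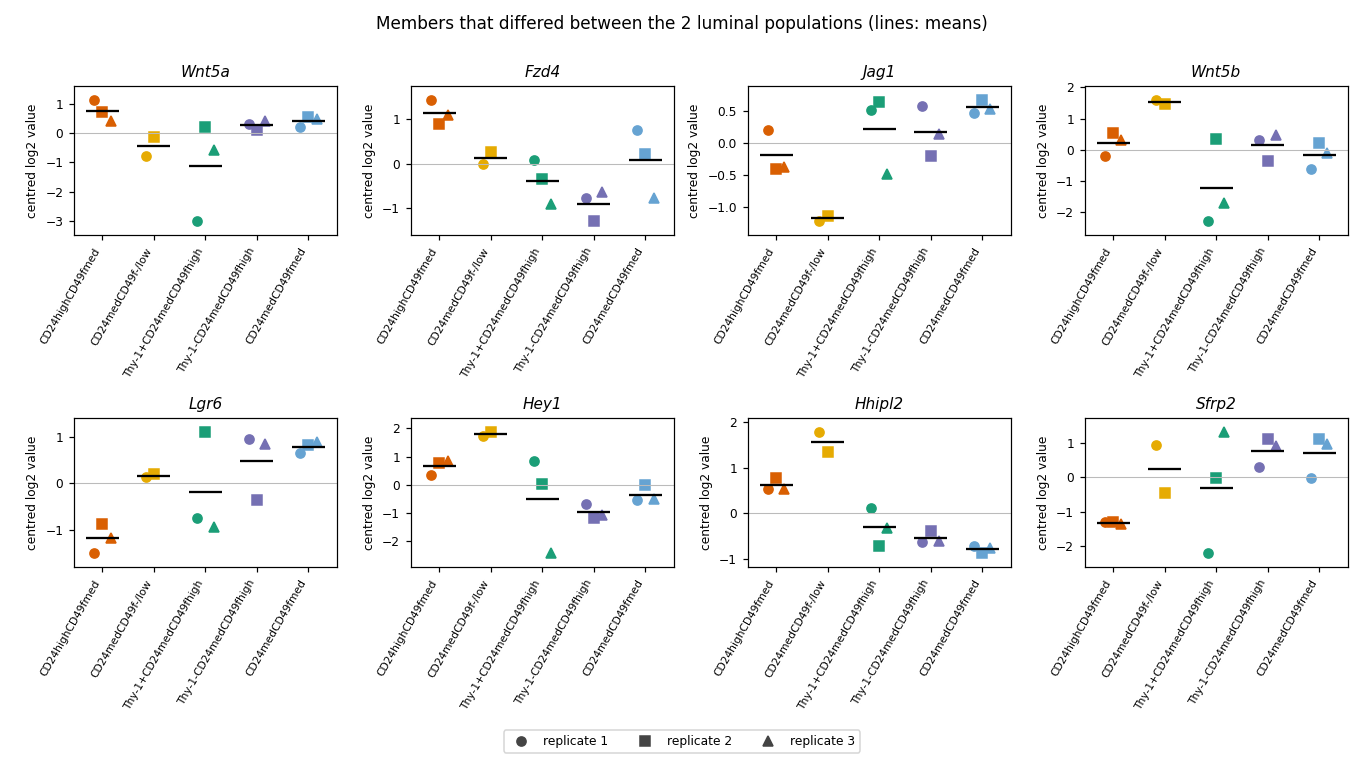
Centred log2 values of the 8 members called between the luminal populations, each point 1 array, with lines for population means. Lgr6 has its lowest population mean in the CD24highCD49fmed arrays (-1.50 to -0.88), and Thy-1+CD24medCD49fhigh replicate 3 (-0.94) lies in their range. Hey1 and Hhipl2 are highest in the CD24medCD49f-/low arrays, and Sfrp2 shows the widest gap between the 2 CD24medCD49f-/low arrays (0.94 and -0.45).

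Of other pathway genes, only Cthrc1, a secreted protein that favours polarity signals of Wnt (1.25, limma adjusted p = 0.0311), and Arrb1, an arrestin (-1.04, limma adjusted p = 0.025), were called between the luminal populations, among 30 Wnt, 17 Notch and 11 Hedgehog genes. With all 14 arrays in 1 fit, 0 members and 4 rows were called, and after median centring 0 members were higher and 5 lower. The count was 0 without CD24medCD49f-/low replicate 1 or without CD24highCD49fmed replicate 3, 2 without CD24highCD49fmed replicate 2 and 4 without CD24medCD49f-/low replicate 2, and the sign of each of the 8 differences was kept throughout.

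The remaining comparisons asked whether basal populations differ from each other. With Thy-1+CD24medCD49fhigh cells set against Thy-1-CD24medCD49fhigh cells, 0 members were called by limma, as were 0.0417% of all rows (3 of 7190), and 4 members had an unadjusted p under 0.05, as did 380 rows. Between Thy-1+CD24medCD49fhigh and CD24medCD49fmed cells 0 members and 0% of rows were called by limma, with 3 members and 383 rows at an unadjusted p under 0.05. With the replicate number as a block, which pairs these arrays, 0 members and 55 rows were called. Between Thy-1-CD24medCD49fhigh and CD24medCD49fmed cells 0 members and 0% of rows were called by limma, with 1 member and 84 rows at an unadjusted p under 0.05. A p that misses the threshold does not show that the populations are alike, and the Thy-1+CD24medCD49fhigh comparisons share their arrays.

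The members with the largest differences all carried the split among the Thy-1+CD24medCD49fhigh arrays. Rnf43 was -2.11, 0.43 and -1.32 in Thy-1+CD24medCD49fhigh arrays, against 0.67, 0.75 and 0.98 in Thy-1-CD24medCD49fhigh arrays (difference -1.80, SE 0.70, limma adjusted p = 0.739). Dkk3 was -0.46, 1.28 and -1.18 in Thy-1+CD24medCD49fhigh arrays, against 2.00, 1.10 and 1.67 in Thy-1-CD24medCD49fhigh arrays (difference -1.71, SE 0.70, limma adjusted p = 0.755). In both genes replicates 1 and 3 of Thy-1+CD24medCD49fhigh cells were low and replicate 2 was near the other basal arrays. Fzd7, whose arrays are given above, had the same split (difference -1.50, SE 0.70, limma adjusted p = 0.755).

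Against CD24medCD49fmed cells, Dkk3 (1.18, 1.98 and 1.79 in CD24medCD49fmed arrays) had a difference of -1.77 (SE 0.65) and Fzd7 one of -1.71 (SE 0.68), both with a limma adjusted p of 0.548. Wnt5a was -2.99, 0.19 and -0.59 in Thy-1+CD24medCD49fhigh arrays, against 0.20, 0.55 and 0.48 in CD24medCD49fmed arrays (difference -1.54, limma adjusted p = 0.548). Only replicate 1 was far from the others in that gene. Without Thy-1+CD24medCD49fhigh replicate 2, the array with Thy1 at -0.07, 9 members were called lower against CD24medCD49fmed cells (Dkk3, Fzd1, Fzd3, Fzd5, Fzd7, Lgr4, Lgr6, Rnf43 and Wnt5b). In that fit 856 of 7190 rows were called, 82 higher and 774 lower, with the median of all rows at -0.76. Against Thy-1-CD24medCD49fhigh cells, leaving out the same array gave 0 members and 10 rows called. Without the low-median replicates 1 and 3 no member was called, and the Fzd7 difference was 0.03 against CD24medCD49fmed cells and 0.23 against Thy-1-CD24medCD49fhigh cells.

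**Figure D5:**
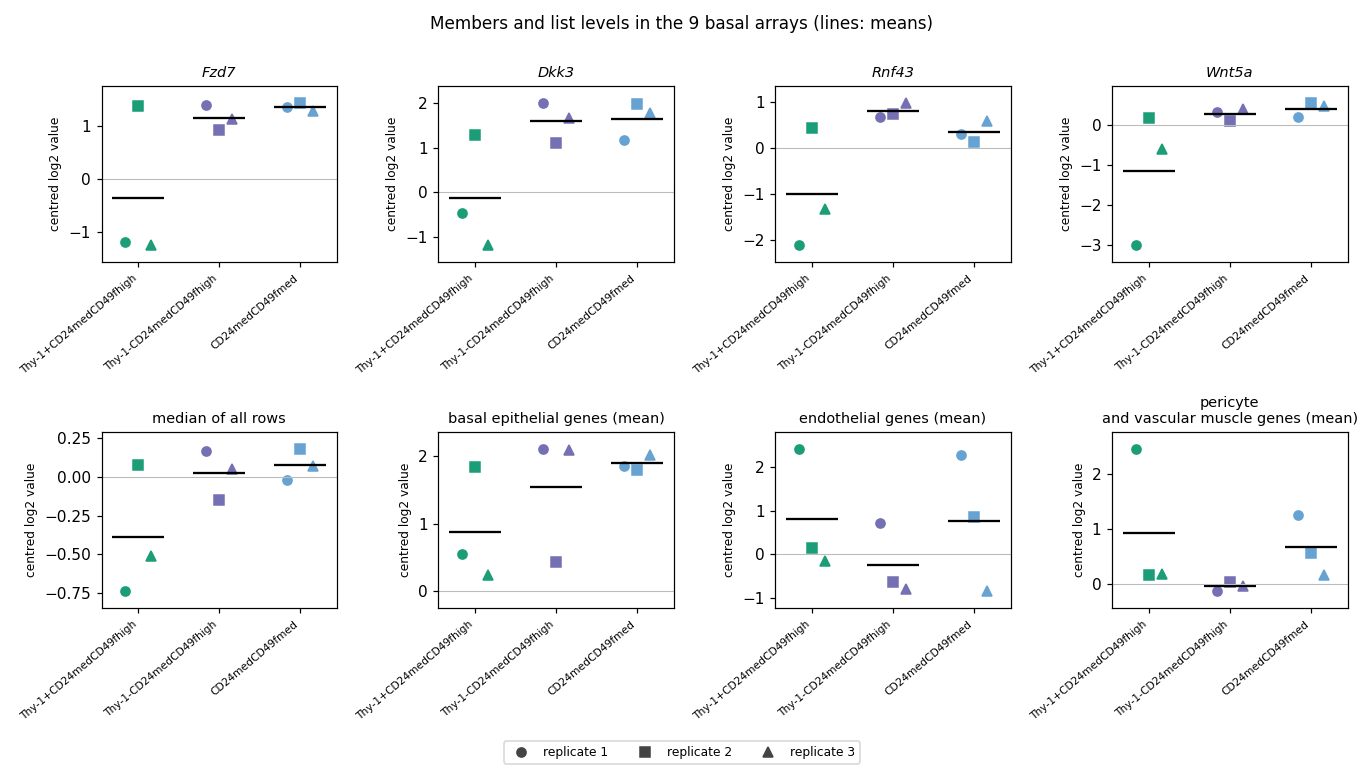
Centred log2 values in the 9 basal arrays, each point 1 array and each line a population mean, for 4 members (upper row) and for the median of all rows and 3 marker lists (lower row). Fzd7, Dkk3 and Rnf43 are low in Thy-1+CD24medCD49fhigh replicates 1 and 3, where basal epithelial genes average 0.55 and 0.24. They are near the other basal arrays in replicate 2 of that population, where basal epithelial genes average 1.84. In Thy-1-CD24medCD49fhigh replicate 2 basal epithelial genes average 0.43, while Fzd7 is 0.94, Dkk3 1.10 and Rnf43 0.75. A link between these values was not tested.

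Several members peaked in Thy-1+CD24medCD49fhigh replicate 1, where endothelial genes averaged 2.42 and pericyte genes 2.45, against -0.85 to 2.28 and -0.13 to 1.25 in the other 8 basal arrays. They were Heyl, a Hey factor of vessel walls (2.90), Wnt8b (2.11), Notch4 (1.86), Lfng (1.57), Hey2 (1.35) and Smo (1.18). Notch4 was also high in CD24medCD49fmed replicate 2 (1.38), where endothelial genes averaged 0.85, and lay at -0.42 to 0.34 in the other 7 basal arrays. In CD24medCD49fmed replicate 1, where endothelial genes averaged 2.28, Notch4 was 0.34 and Heyl 0.37. CD31, an endothelial antigen, was among those stained for in the sort, and the part of vessel cells in these values was not tested. Between Thy-1-CD24medCD49fhigh and CD24medCD49fmed cells the largest differences were Fzd4 at -0.98, Notch4 at -0.76 and Lgr4 at -0.64 (limma adjusted p = 0.999 for Fzd4). Fzd4 was -0.78, -1.30 and -0.65 in Thy-1-CD24medCD49fhigh arrays, against 0.77, 0.21 and -0.77 in CD24medCD49fmed arrays, and endothelial genes averaged 0.73, -0.65 and -0.80 there, against 2.28, 0.85 and -0.85. The Fzd4 groups overlapped through CD24medCD49fmed replicate 3.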

How the data were processed

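The authors deposited 1 table of log2 values for 14 arrays. Per the study's methods, arrays were normalised together by robust multichip average (RMA) in MIDAS, probe sets were filtered in Cluster 3.0 on signal and on fold difference between arrays, and each probe set was mean-centred. The submitters' processing notes also name GCRMA. Versions of RMA, GCRMA and MIDAS are not given in the sources. Rows of the table were centred on 0, and each spanned at least 2.0 log2 units. Because dim and steady probe sets were removed and values were centred, absolute levels and signal over background cannot be read, and the number of arrays limits the precision.

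The table held 9645 probe sets, of which 8499 named 1 gene, 199 several and 947 none. Probe sets of 1 gene were averaged, and 13 members had more than 1. Samples were grouped by their titles. Comparisons were fitted in R 4.3.3 with limma 3.58.1, using lmFit, contrasts.fit and eBayes (two-sided, Benjamini-Hochberg over 7190 rows, threshold 0.05), luminal against basal with all 14 arrays and equal weight for each population within a lineage, and the others with the arrays of the groups compared. The study used rank products; limma was used here because it sets a difference against the spread between arrays. The fits were tested on simulated data. Tables and figures were made with Python 3.11.15, numpy 2.4.6, pandas 2.3.3 and matplotlib 3.10.9, and promoters were RefSeq sequences of GRCm38.p6.

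The members, role groups and lists were chosen with earlier results of these data known. Named members were, in each role group, up to 4 called higher and 4 called lower with the largest difference between lineages, and in other comparisons every called member up to 10 each way, or the 3 with the largest difference where none was called. Members named beyond that rule were picked after their values were seen. Alternatives were median centring of arrays, weights for arrays, quantile normalization, single probe sets, a block for the replicate number, a minimum absolute log2 difference of 1, all arrays in 1 fit and leaving out each array. Leaving out both low-median Thy-1+CD24medCD49fhigh arrays, or that population, was added after seeing the data.

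Whether replicate numbers pair arrays was checked by correlating deviations from population means over all rows. Correlations of same-numbered arrays were 0.388, 0.391 and 0.386 between Thy-1+CD24medCD49fhigh and CD24medCD49fmed cells and 0.374, 0.328 and 0.558 between Thy-1-CD24medCD49fhigh and CD24medCD49fmed cells, which were taken as paired. They were -0.002, -0.160 and 0.245 for Thy-1+CD24medCD49fhigh arrays with Thy-1-CD24medCD49fhigh arrays. Only 2 pairs could be made between the luminal populations, at 0.296 and 0.151 (0.335 and 0.494 over the members). In both of these cases numbers were taken only as names. Over the members alone, correlations between Thy-1-CD24medCD49fhigh and CD24medCD49fmed cells were -0.194, -0.150 and 0.363. Deviations of differently numbered arrays were not correlated between populations, so the check lacks that reference. The main fits used no block in any comparison.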

Additional observations from a re-analysis of the deposited data

How the results depend on the processing

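Between luminal and basal cells, 29 members were called, and 22 to 33 under the alternatives chosen at the outset, all within 1.5 times: 22 to 32 when single arrays were left out, 30 with the replicate block, 33 with array weights, 31 after quantile normalization, 29 after median centring (27 of them shared, with Notch1 and Wnt7b lost) and 23 at an absolute log2 difference of 1 or more. Every named member kept its sign there. Of 7190 rows 3242 were called in the main fit, 3429 with the replicate block, 4327 with array weights and 3243 after quantile normalization. Rows called were 2999 after median centring and 2396 at an absolute log2 difference of 1 or more. Leaving out single arrays of the populations with 3 arrays gave 2617 to 4270 rows. The member counts are read against these. Between CD24highCD49fmed and CD24medCD49f-/low cells the count was 8, but 5 after median centring, 5 after quantile normalization, 0 with all 14 arrays in 1 fit and 0 to 8 when single arrays were left out, while the replicate block gave 9 members and raised the rows called to 829 from 402 in the same arrays. Rows called between these luminal populations were 405 after median centring and 384 after quantile normalization. For the Thy-1+ against the Thy-1- CD24medCD49fhigh cells the count was 0, but 2 with array weights (Dkk3 and Fzd7). Array weights also raised the rows called there to 199 of 7190, from 3 in the main fit. Between Thy-1+CD24medCD49fhigh and CD24medCD49fmed cells the count was 0 to 9 when single arrays were left out, with 0 to 856 rows called. The Fzd7 difference turned from -1.50 and -1.71 in these 2 comparisons to 0.23 and 0.03 without both low-median Thy-1+CD24medCD49fhigh arrays. With the replicate block no member was called in any comparison of basal populations. Median centring moved the median of all rows from 0.14 to -0.02 between luminal populations, from -0.42 to -0.01 for the Thy-1+ against the Thy-1- CD24medCD49fhigh cells and from -0.51 to -0.04 between Thy-1+CD24medCD49fhigh and CD24medCD49fmed cells. The causes were not tested. Fits that left 1 array in a group assumed that it varied like the other group.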

Other observations

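Taken over the 43 members together, the median centred log2 value was -0.37, -0.33 and -0.32 in CD24highCD49fmed arrays and -0.56 and -0.41 in CD24medCD49f-/low arrays, against 0.37, 0.11 and 0.25 in Thy-1-CD24medCD49fhigh arrays and 0.27, 0.67 and 0.46 in CD24medCD49fmed arrays. In Thy-1+CD24medCD49fhigh arrays it was -0.05, 0.35 and -0.32. The median of all rows was 0.04 to 0.28 in luminal arrays, against -0.74, 0.08 and -0.51 in Thy-1+CD24medCD49fhigh arrays. None of the 13 members with more than 1 probe set had probe sets of opposite sign between lineages, and apart from Apcdd1 the lowest correlation between probe sets of 1 member was 0.47, for Fzd3.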
